A study of Arabidopsis thaliana with 4 samples.

Results

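The genes described here are 10 genes of cuticular wax synthesis and export in Arabidopsis thaliana, picked by gene identifier from the 33602 genes of the deposited table: KCR1 (AT1G67730), PAS2 (AT5G10480), CER10 (AT3G55360), CER2 (AT4G24510), CER3 (AT5G57800), CER1 (AT1G02205), MAH1 (AT1G57750), CER4 (AT4G33790), ABCG11 (AT1G17840) and ABCG12 (AT1G51500). All 10 were in the table. RNA was measured in guard cells, the paired cells that open and close the stomatal pore. They were sorted by fluorescence from protoplasts of the aerial tissue of seedlings at 12 days post germination, grown on plates. The first genotype was fama-1 carrying FAMAp:FAMA-LGK (2 libraries), and the second was wild type, WT (2 libraries). FAMA is the transcription factor that ends division and sets guard cell fate. FAMA-LGK is a form altered in the motif that binds the retinoblastoma-related protein, expressed from the FAMA promoter in a mutant lacking the normal gene. The series calls these guard cells reprogrammed and the WT ones fully differentiated. The sources used here give neither the sort marker nor the number of plants or transgenic lines. Whether the libraries of a genotype were grown separately is not stated, so a p-value reflects only how far these libraries varied, possibly for technical reasons.

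Wax is made in the endoplasmic reticulum of epidermal cells, guard cells included, from fatty acids lengthened by a repeated cycle of reactions. A ketoacyl-CoA synthase (KCS) adds carbon units, KCR1 reduces the product, PAS2 removes water and CER10 makes the last reduction. CER2 is needed for the longest chains. The finished chains then enter an alkane branch, in which CER3 and CER1 act together and MAH1 oxidises the alkanes to secondary alcohols and ketones, or an alcohol branch, in which CER4 makes primary alcohols. ABCG11 and ABCG12 are half-size ABC transporters of the plasma membrane that export wax. ABCG11 also serves cutin.

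Values are TPM, a unit that divides reads by gene length and scales each library to a fixed total. Levels of different genes can thus be compared, but only roughly. The cDNA was amplified, and the gene lengths and the handling of multi-mapping reads are not stated. Reads per gene were estimated from the steps between the TPM values, with totals of 13324274 and 13234118 reads in FAMA-LGK replicates 1 and 2, against 13861603 and 15791384 in WT replicates 1 and 2. Organelle genes took 25.3% to 30.8% of TPM and nuclear ribosomal RNA 22.3% to 33.0%. The correlation of log2(TPM + 1) over genes was 0.952 for the FAMA-LGK pair, 0.970 for the WT pair and 0.885 to 0.898 for pairs of unlike genotype. FAMA transcripts were at 94.3 and 81.2 TPM in FAMA-LGK, against 66.1 and 65.6 TPM in WT. This value cannot separate the mutant locus from the transgene.

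Of the 10 wax genes, 7 had a mean of at least 1 TPM and were tested, and each of the 7 also reached that minimum within each genotype. ABCG11 and CER10 rose in FAMA-LGK, 0 of the 7 fell and 5 were not called (limma, adjusted p threshold 0.05). Among all 15143 genes tested, 6.45% were called higher and 6.14% lower. In 6 of the 7, both FAMA-LGK libraries lay above both WT libraries, which held for 31.6% of all genes tested. The median log2 fold change of the 7 was 0.69, beside 0.06 for all genes tested. CER1 lay below the minimum, and CER4 and MAH1 were listed at 0 in every library.

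**Figure D1:**
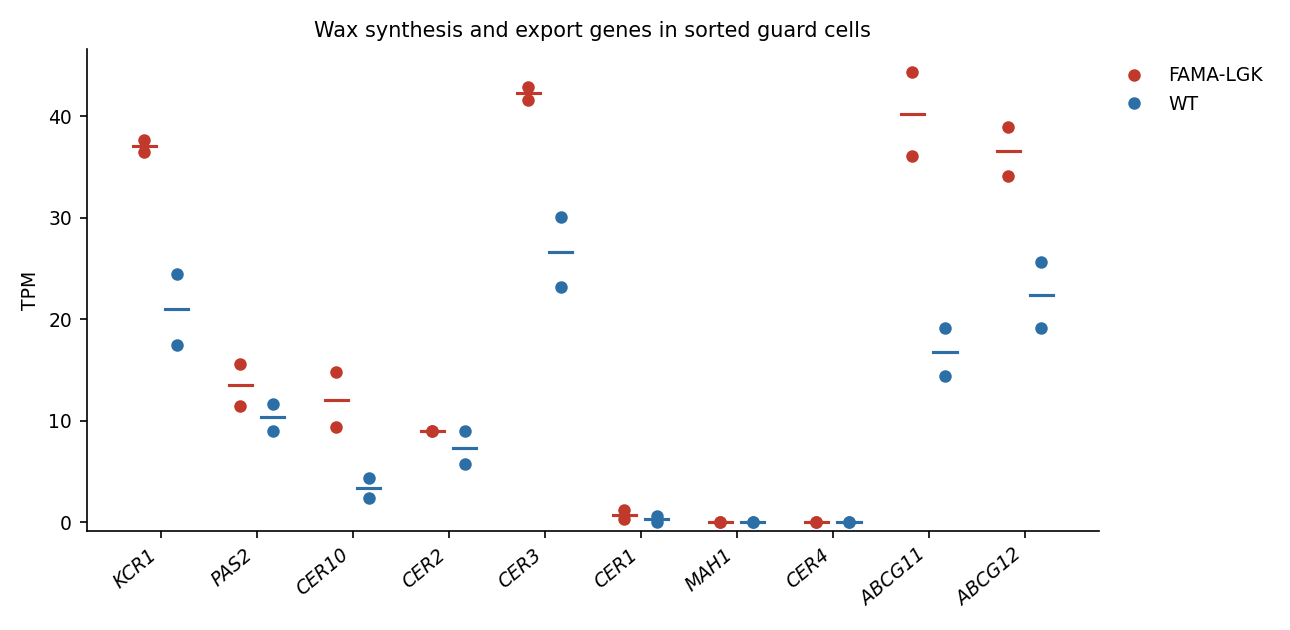
TPM of the 10 wax genes in each library (points) with the mean of each genotype (lines), FAMA-LGK in red and WT in blue, ordered from chain elongation to export. The FAMA-LGK points of KCR1, CER10, CER2, CER3, ABCG11 and ABCG12 lie above the WT points, those of PAS2 and CER1 overlap with WT, and CER4 and MAH1 lie at 0.

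Of the 3 elongation enzymes among the 10 genes, CER10 alone was called. CER10, the enoyl-CoA reductase, had 14.8 and 9.37 TPM in FAMA-LGK, against 4.34 and 2.40 TPM in WT. Both FAMA-LGK libraries were above both WT libraries, although FAMA-LGK replicate 1 was well above replicate 2. The mean was 3.59 times that of WT, the largest ratio of the 7 tested wax genes (log2 fold change 1.59 on the log2(TPM + 1) scale, SE 0.34, limma adjusted p = 0.0160), and rested on an estimated 208 and 132 reads against 62 and 39. Without FAMA-LGK replicate 1 the fold change was 1.28 and the call was lost (limma adjusted p = 0.0927). A gene on the opposite strand shares 1.89% of the CER10 exons.

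KCR1, the ketoacyl-CoA reductase, had 37.7 and 36.5 TPM in FAMA-LGK, against 24.5 and 17.4 TPM in WT. The genotypes did not overlap, but the log2 fold change of 0.81 (95% interval 0.28 to 1.34, limma adjusted p = 0.0525) fell just outside the threshold. KCR1 was within the threshold under 8 of 15 alternatives, among them median-ratio scaling (limma adjusted p = 0.0468) and a minimum of 5 TPM (limma adjusted p = 0.0426). The 8 include voom on the estimated reads, chosen after seeing the data, and a robust variance fit at the edge (limma adjusted p = 0.04999). They also include a fit that blocks on library number, which took nearly the same spread for many genes. KCR1 was outside the threshold without a variance trend (limma adjusted p = 0.124) and without a filter on low values (limma adjusted p = 0.133). It was also outside with 0.1 in place of 1 added to TPM (limma adjusted p = 0.0605), and whichever library was left out. Leaving out 1 library gave log2 fold changes of 0.58 to 1.05.

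PAS2, the hydroxyacyl-CoA dehydratase, had 15.6 and 11.5 TPM in FAMA-LGK, against 11.7 and 9.02 TPM in WT. Here the ranges overlapped, since FAMA-LGK replicate 2 was just below WT replicate 1 (log2 fold change 0.35, 95% interval -0.26 to 0.96, limma adjusted p = 0.439). The level of PAS2 relative to CER10 was therefore 1.05 and 1.23 in FAMA-LGK, against 2.70 and 3.76 in WT, and that of KCR1 relative to CER10 was 2.54 and 3.90 in FAMA-LGK, against 5.65 and 7.26 in WT. Neither ratio overlapped between genotypes. An exact two-sided permutation test of each log2 ratio gave p = 0.333, the smallest that 2 libraries against 2 allow.

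CER2, an acyltransferase-like protein that works with KCS6 to reach the longest chains, had 9.01 and 8.98 TPM in FAMA-LGK, against 8.97 and 5.78 TPM in WT. The genotypes barely separated, since WT replicate 1 was close to both FAMA-LGK libraries. The log2 fold change was 0.28 (95% interval -0.37 to 0.94, limma adjusted p = 0.577), and 0.0033 without WT replicate 2. KCS6, its partner synthase, had 128.0 and 132.8 TPM in FAMA-LGK, against 115.4 and 92.8 TPM in WT (log2 fold change 0.33, limma adjusted p = 0.338). KCS6 stood at 14.2 and 14.8 times CER2 in FAMA-LGK, against 12.9 and 16.1 times in WT, so this ratio overlapped between genotypes. AT4G07275, a gene without TPM values here, shares 19.4% of the CER2 exons on the opposite strand.

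CER3 had 42.9 and 41.7 TPM in FAMA-LGK, against 30.1 and 23.2 TPM in WT. Its mean was the highest of the 10 genes in each genotype, but it overlapped the next gene in both and lay below ABCG11 in FAMA-LGK replicate 1. The genotypes did not overlap, and the log2 fold change of 0.66 (95% interval 0.16 to 1.16, limma adjusted p = 0.0857) missed the threshold. Its partner CER1 was nearly absent: 0.361 and 1.199 TPM in FAMA-LGK, against 0.0788 and 0.659 TPM in WT. These values stand for an estimated 9 and 30 reads in FAMA-LGK, against 2 and 19 reads in WT, and the genotypes overlapped. CER3 thus exceeded CER1 by 118.8 and 34.7 times in FAMA-LGK, against 381.4 and 35.3 times in WT, where the highest ratio rests on the 2 CER1 reads of WT replicate 1.

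MAH1, the cytochrome P450 that acts on the alkanes, and CER4, the reductase of the alcohol branch, were at 0 TPM in all 4 libraries. At the longest annotated transcript of each gene, 3 reads would have been 0.151 to 0.152 TPM of MAH1 in FAMA-LGK, against 0.131 to 0.149 TPM in WT, and 0.147 TPM of CER4 in FAMA-LGK, against 0.127 to 0.145 TPM in WT. A count of 0 allows levels up to these values. Reads carry no molecular identifiers, so such limits cover counting error only.

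Of the export genes, ABCG11 rose in FAMA-LGK and ABCG12 was not called. ABCG11 had 44.4 and 36.1 TPM in FAMA-LGK, against 19.2 and 14.5 TPM in WT. The FAMA-LGK libraries were clearly above the WT libraries, at 2.39 times the WT mean (log2 fold change 1.22, SE 0.24, limma adjusted p = 0.0105). The call of ABCG11 held without either FAMA-LGK library (limma adjusted p = 0.0470 and 0.0180). AT1G17850 on the opposite strand shares 18.6% of the ABCG11 exons, and it had 4.01 and 3.38 TPM in FAMA-LGK, against 1.27 and 1.16 TPM in WT. The strand setting of the counting is not stated, so reads of the shared stretch cannot be told apart.

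ABCG12, also known as CER5, had 34.1 and 39.0 TPM in FAMA-LGK, against 25.7 and 19.2 TPM in WT (log2 fold change 0.69, 95% interval 0.17 to 1.22, limma adjusted p = 0.0848). Its genotypes did not overlap, and it was not called. ABCG11 relative to ABCG12 stood at 1.3 and 0.926 in FAMA-LGK, against 0.746 and 0.755 in WT, so ABCG11 was the lower of the pair in both WT libraries and in FAMA-LGK replicate 2. The exact two-sided permutation test of the log2 ratio again gave its smallest possible p of 0.333.

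The order of mean levels differed between genotypes at its upper end, where ABCG11 and ABCG12 changed places, and at its lower end. In FAMA-LGK, CER3, ABCG11, KCR1 and ABCG12 averaged 36.6 to 42.3 TPM, and each overlapped its neighbour in the order. PAS2 and CER10, which overlapped each other, followed at 13.6 and 12.1 TPM, and then CER2 at 8.98 and 9.01 TPM. In WT, CER3, ABCG12, KCR1 and ABCG11 averaged 16.8 to 26.7 TPM, again with each overlapping its neighbour. PAS2 was next at 10.4 TPM, CER2 at 7.38 TPM and CER10 last of the 7 at 3.37 TPM, without overlap between these neighbours. CER10 thus ranked above CER2 in FAMA-LGK and below it in WT.

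**Figure D2:**
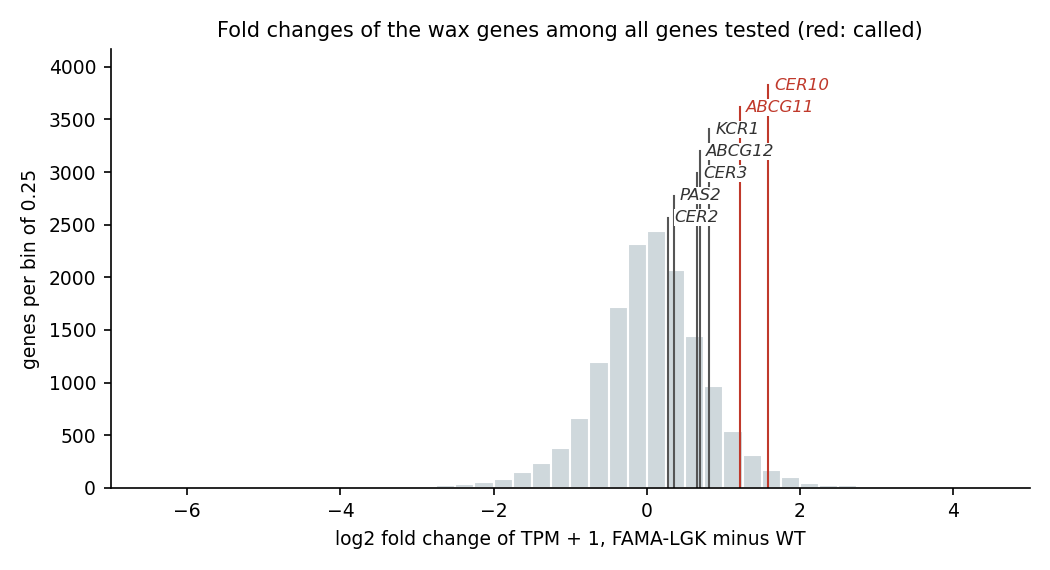
Number of genes (y axis) by log2 fold change of TPM + 1, FAMA-LGK minus WT (x axis, bins of 0.25), for all 15143 genes tested, with a line for each of the 7 tested wax genes and red lines for the 2 called. All 7 lines lie above 0, from 0.28 for CER2 to 1.59 for CER10.

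Each call needed both WT libraries. Leaving out WT replicate 1 left limma with 0 calls among the 15143 genes (2675 had an unadjusted p under 0.05), and leaving out WT replicate 2 also left 0 (2365 had one). ABCG11 then had an adjusted p of 0.134 and 0.215, and CER10 of 0.161 and 0.269, in limma fits that assume the lone WT library to vary like the FAMA-LGK libraries. This holds for every gene named as changed in this text. TPM also depends on what else is in the library. Once genes of ribosomal RNA and of the organelles were taken out, the median log2 fold change of all genes was 0.24, and 1504 of 17156 genes (8.77%) were called higher. CER1 then also reached the minimum, and 5 of the 8 wax genes tested were called higher: CER10 (1.91), ABCG11 (1.44), KCR1 (1.02), ABCG12 (0.90) and CER3 (0.86). Voom on the estimated reads, an alternative chosen after seeing the data, also called CER10, ABCG11, KCR1, ABCG12 and CER3 higher, beside 7.77% of all genes tested.

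**Figure D3:**
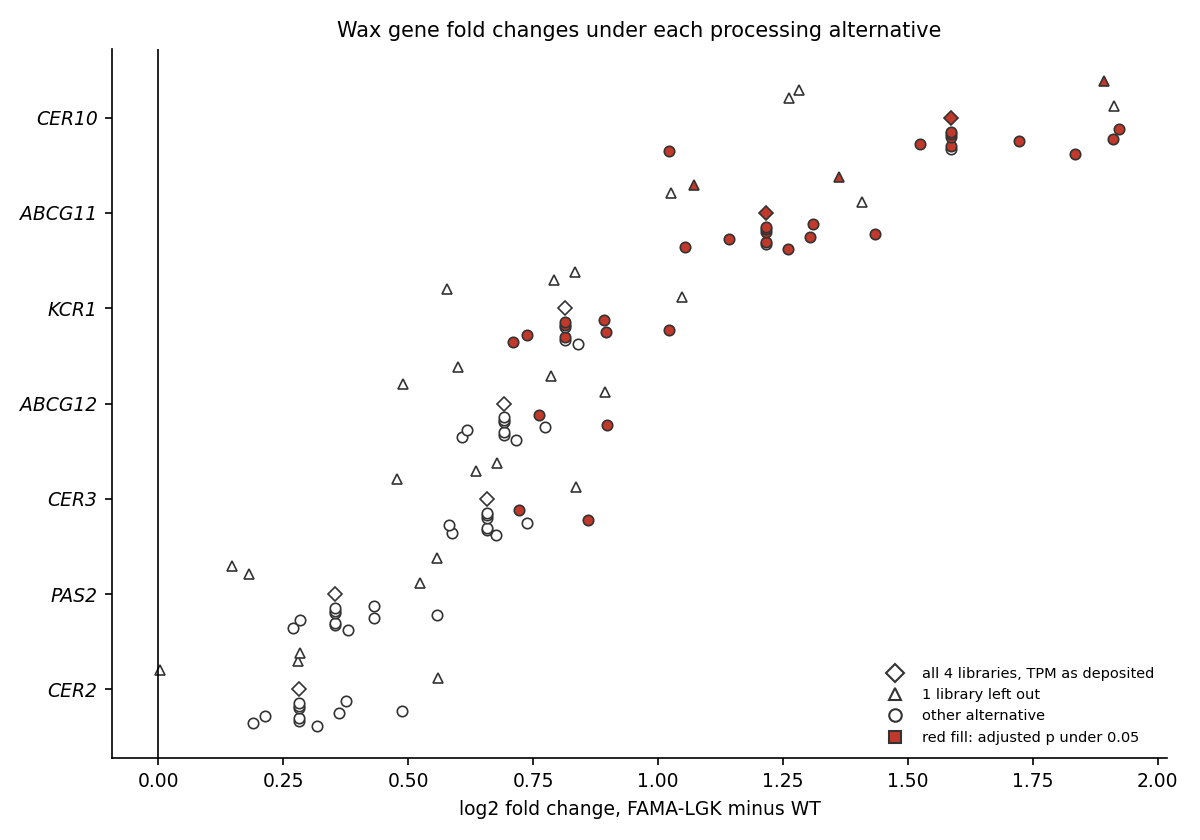
Log2 fold changes (x axis) of the 7 tested wax genes (y axis) with all 4 libraries (diamonds), with 1 library left out (triangles) and under the other processing alternatives (circles); red symbols have an adjusted p under 0.05. Every value lies above 0, and CER2 comes closest, at 0.0033 without WT replicate 2.

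Other genes of the wax pathway, 44 in all, were followed in the same fit. Of these, 23 reached the minimum, 9 were higher, 2 lower and 12 not called, and the median log2 fold change of the 23 was 0.79. Over all genes tested, 6.45% were called higher and 6.14% lower, and the median was 0.06. FAR1 reached the minimum only through FAMA-LGK, while the other 22 did so in each genotype. The 10 listed ketoacyl-CoA synthases, which open each elongation cycle, held 6 of the 9 higher genes. KCS1 had 375.5 and 382.5 TPM in FAMA-LGK, against 43.4 and 28.2 TPM in WT (log2 fold change 3.40, SE 0.24, limma adjusted p = 3.9e-05). KCS20 had 366.2 and 321.4 TPM in FAMA-LGK, against 112.0 and 68.7 TPM in WT (log2 fold change 1.96, limma adjusted p = 0.0012). Both stood far above WT, with no overlap. Of the 23 tested pathway genes, 16 lay higher without overlap and 6 lower, beside 31.6% and 25.7% of all genes tested.

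The other higher synthases were KCS5 (log2 fold change 2.07), KCS3 (1.68), KCS10 (1.29), also named FIDDLEHEAD, and KCS2 (1.11), whereas KCS6, KCS16 (0.49) and KCS9 (-0.32) were not called and KCS8 was below the minimum. Without FAMA-LGK replicate 1, KCS2 lost its call (limma adjusted p = 0.132). AT1G04247, a gene of the newer annotation that the table does not list, shares 61.5% of the KCS2 exons on the opposite strand and is 86.6% identical to KCS20 over 456 bases, so reads of KCS2 and KCS20 may be shared. KCS5 is 85.7% identical to KCS6 over 447 bases. The 10 listed synthases together held 1121 and 1077 TPM in FAMA-LGK, against 408.5 and 292.6 TPM in WT. KCS1 exceeded KCR1 by 9.96 and 10.5 times in FAMA-LGK, against 1.77 and 1.62 times in WT (exact two-sided permutation p = 0.333, the smallest possible).

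**Figure D4:**
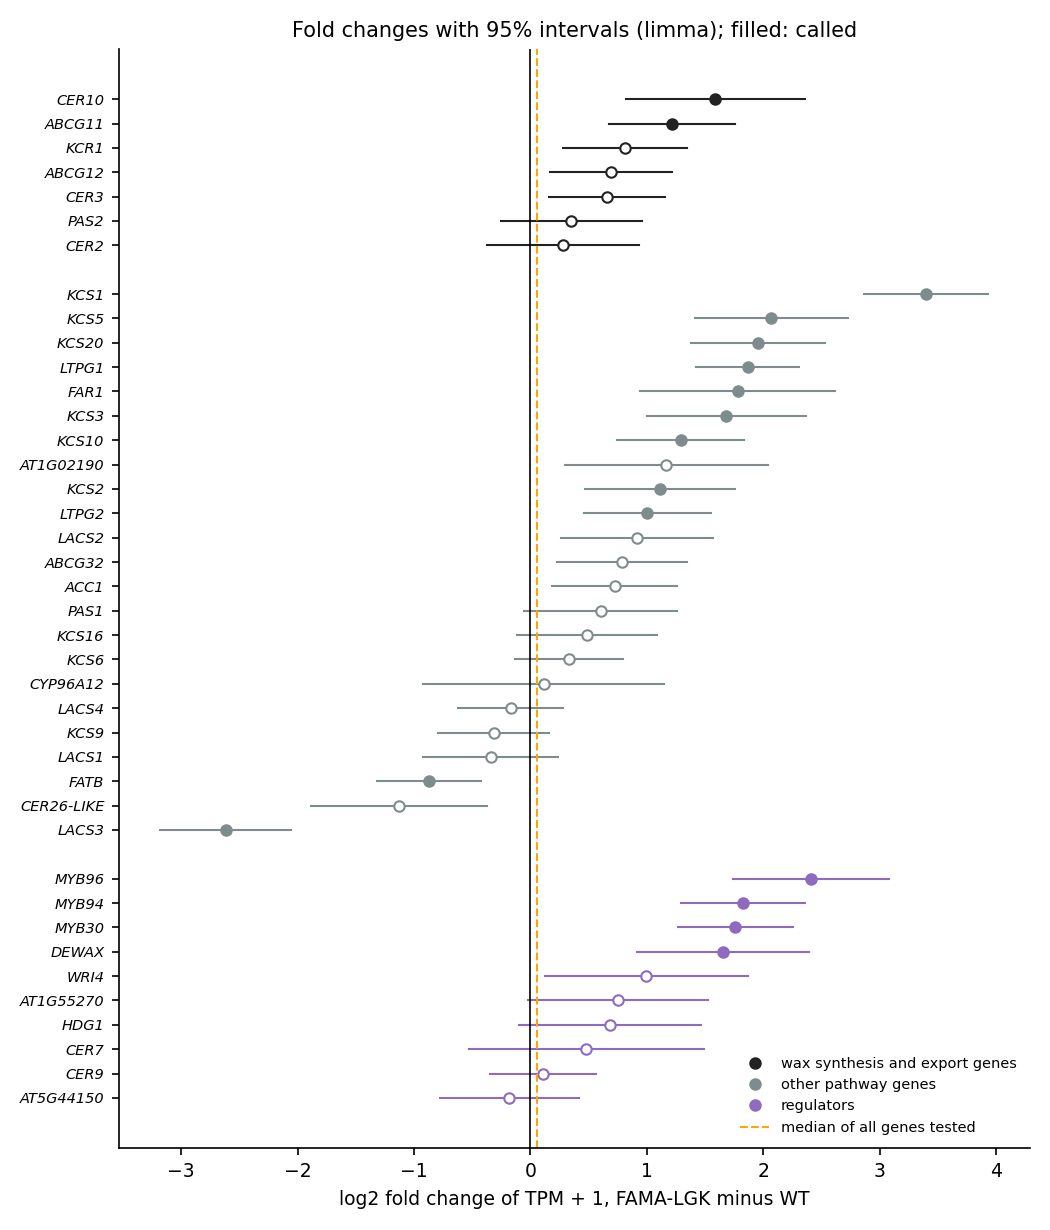
Log2 fold changes of TPM + 1, FAMA-LGK minus WT, with 95% intervals from limma, for the 7 tested wax genes (black), 23 other pathway genes (grey) and 10 regulators (purple); filled points were called and the dashed line marks the median of all genes tested, 0.06. KCS1 lies farthest right at 3.40 and LACS3 farthest left at -2.62.

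Genes that supply the cycle went the other way or were not called. LACS3, a long-chain acyl-CoA synthetase, had 7.25 and 11.2 TPM in FAMA-LGK, against 58.9 and 61.9 TPM in WT (log2 fold change -2.62, SE 0.25, limma adjusted p = 2.2e-04). FATB, the thioesterase that releases saturated fatty acids from the plastid, had 49.0 and 50.2 TPM in FAMA-LGK, against 89.9 and 93.2 TPM in WT (log2 fold change -0.87, limma adjusted p = 0.0194). Both fell without overlap, as did 25.7% of all genes tested. FATB was at an adjusted p of 0.0544 in the limma fit without ribosomal RNA and organelle genes. The synthetases LACS1 (log2 fold change -0.34), LACS2 (0.92) and LACS4 (-0.17) were not called. Also not called were the carboxylase ACC1 (0.72), which makes malonyl-CoA, and the immunophilin-like PAS1 (0.60), which binds elongase enzymes. ACC1 is 90.3% identical to AT1G36180 over 5959 bases, so their reads may be shared.

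Close relatives of the 10 wax genes were mostly low. CER26, a relative of CER2, had 1.58 and 0.408 TPM in FAMA-LGK, against 0.0574 and 0.0505 TPM in WT, or an estimated 27 and 7 reads against 1 and 1. CER26-LIKE had 2.26 and 1.72 TPM in FAMA-LGK, against 6.46 and 4.71 TPM in WT (log2 fold change -1.13, limma adjusted p = 0.0565). CER2 stood at 3.99 and 5.22 times CER26-LIKE in FAMA-LGK, against 1.39 and 1.23 times in WT, with no overlap. AT1G02190, annotated as a member of the fatty acid hydroxylase superfamily and 91.5% identical to CER1 over 118 bases, had 4.50 and 3.12 TPM in FAMA-LGK, against 1.60 and 0.725 TPM in WT (log2 fold change 1.17, limma adjusted p = 0.0809). It was above CER1 in every library.

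FAR1, a fatty acyl reductase related to CER4 and known from suberin synthesis, rose to 5.13 and 3.92 TPM in FAMA-LGK, against 0.424 and 0.793 TPM in WT (log2 fold change 1.78, SE 0.37, limma adjusted p = 0.0139). Among the other 6 reductases, FAR2, FAR4, FAR5 and FAR8 were at 0 in every library, FAR6 was at 0.121 TPM in FAMA-LGK replicate 1 alone, and FAR7 was at 0.0780 and 0.0777 TPM in FAMA-LGK and 0 in WT. Of 9 cytochromes P450 of the family of MAH1, CYP96A12 reached the minimum and was not called (log2 fold change 0.12). CYP96A4 had 0.957 and 1.23 TPM in FAMA-LGK, against 0.0553 and 0 TPM in WT, an estimated 17 and 22 reads against 1 and 0. CYP96A4 is 85.3% identical to CYP96A3 over 1513 bases, and CYP96A3 was listed at 0, as were CYP96A2 and CYP96A8. CYP96A1, CYP96A9, CYP96A10 and CYP96A11 were at most at 0.408 TPM in any library.

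KCR2, the relative of KCR1, had an estimated 1 and 4 reads in FAMA-LGK, against 1 and 1 in WT. AT5G59770, annotated as PTPLA like and of the family of PAS2, had 0.297 and 0.395 TPM in FAMA-LGK, against 1.75 and 1.37 TPM in WT, or 3 and 4 reads against 18 and 16. CYTB5-B, a cytochrome b5 that passes electrons to CER1, was at 0.791 and 0.788 TPM in FAMA-LGK, against 0.906 and 0.912 TPM in WT. WSD1, which joins alcohols and acids into wax esters, was at 0 in every library.

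Among genes that act beside ABCG11 and ABCG12, LTPG1 and LTPG2 rose. LTPG1, a lipid transfer protein anchored to the outer face of the plasma membrane, had 192.8 and 188.9 TPM in FAMA-LGK, against 54.0 and 49.2 TPM in WT (log2 fold change 1.87, SE 0.20, limma adjusted p = 3.7e-04). LTPG2 had 39.2 and 32.8 TPM in FAMA-LGK, against 14.8 and 20.4 TPM in WT (log2 fold change 1.01, limma adjusted p = 0.0251), and lost its call without FAMA-LGK replicate 1 (limma adjusted p = 0.0909). ABCG32, a full-size transporter for cutin precursors, had 15.4 and 14.0 TPM in FAMA-LGK, against 8.22 and 7.94 TPM in WT (log2 fold change 0.79, limma adjusted p = 0.0685). ABCG13, the closest listed relative of ABCG12, was at 0.504 and 0.795 TPM in FAMA-LGK, against 0.330 and 0.109 TPM in WT.

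Of 18 genes that regulate wax synthesis, 10 were tested, 4 rose, 0 fell and 6 were not called, with a median log2 fold change of 0.88. The shares over all genes tested were 6.45% higher and 6.14% lower, with a median of 0.06. The activator MYB96 had 178.0 and 173.2 TPM in FAMA-LGK, against 46.0 and 22.5 TPM in WT (log2 fold change 2.41, SE 0.30, limma adjusted p = 8.9e-04). MYB94, which acts with MYB96, had 37.7 and 49.9 TPM in FAMA-LGK, against 12.0 and 11.1 TPM in WT (log2 fold change 1.83, limma adjusted p = 0.0011). MYB30, an activator of very-long-chain fatty acid synthesis, had 213.8 and 183.0 TPM in FAMA-LGK, against 66.4 and 50.0 TPM in WT (log2 fold change 1.76, limma adjusted p = 9.6e-04). The repressor DEWAX had 9.84 and 11.1 TPM in FAMA-LGK, against 3.61 and 1.87 TPM in WT (log2 fold change 1.65, limma adjusted p = 0.0109). These 3 activators and DEWAX did not overlap between genotypes. Of the 10 tested regulators, 7 lay higher without overlap and 1 lower, beside 31.6% and 25.7% of all genes tested. DEWAX was at a limma adjusted p of 0.0506 without FAMA-LGK replicate 2. MYB94 and MYB96 are 93.1% identical over 145 bases, and their reads may be shared there.

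WRI4 (log2 fold change 1.00), HDG1 (0.68), AT1G55270 (0.75), CER7 (0.48), CER9 (0.11) and AT5G44150 (-0.18) were not called, and MYB106, MYB41, SHN1 and SHN3 were at 0 in every library. MYB16, SHN2, SPL9 and AT5G07580 were below the minimum.

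**Figure D5:**
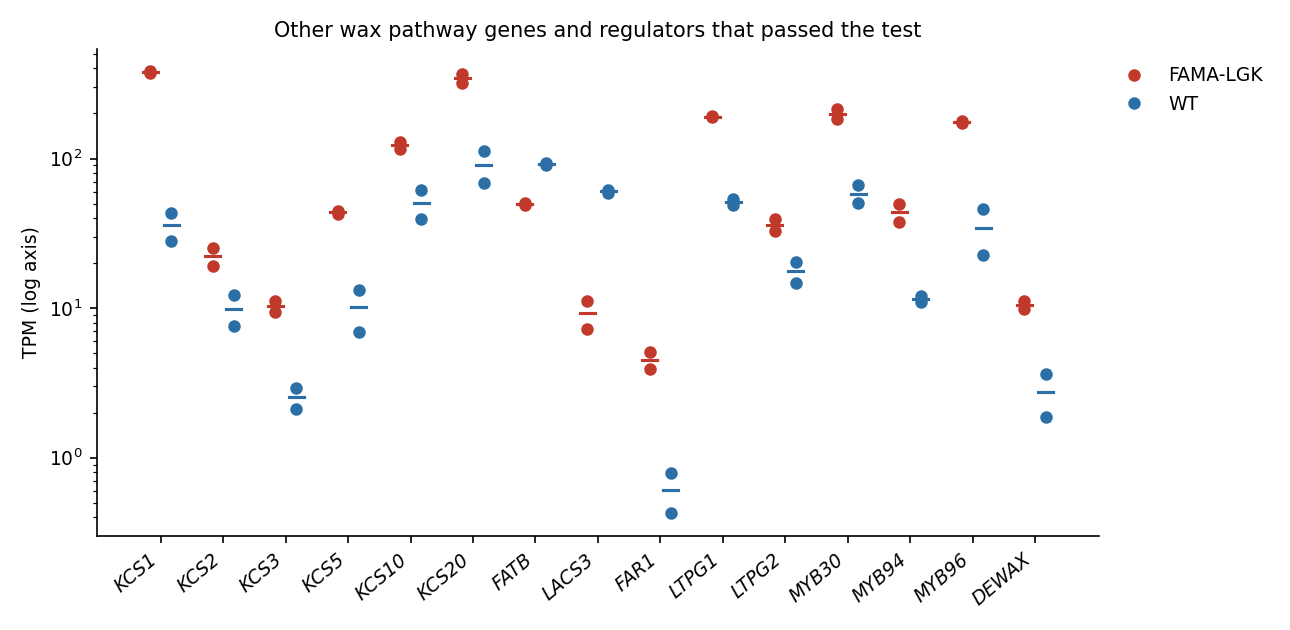
TPM on a log axis of the 11 other pathway genes and the 4 regulators that passed the test, in each library (points) with genotype means (lines), FAMA-LGK in red and WT in blue. FAMA-LGK points lie below WT points for FATB and LACS3 and above them for the other 13.

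Markers of cell types moved as well, where 6.45% of all genes tested were called higher and 6.14% lower. Of 13 guard cell markers, 9 were lower in FAMA-LGK, 1 higher and 3 not called, with summed levels of 2945 and 2588 TPM in FAMA-LGK, against 18179 and 14066 TPM in WT. All 13 were above 0 in every library, but GORK, 1 of the 9 lower, reached the minimum only through WT. TGG1, a guard cell myrosinase, made up most of these sums, with 2652 and 2313 TPM in FAMA-LGK, against 16420 and 12487 TPM in WT, while GC1 (1.13 and 2.09 TPM) and the potassium channel GORK (0.436 and 1.47 TPM) were near the minimum in FAMA-LGK. Without TGG1 the sums were 293.0 and 274.3 TPM in FAMA-LGK, against 1759 and 1579 TPM in WT. TGG2 in turn made up most of these WT sums, at 1139 and 991.7 TPM, against 11.2 and 8.62 TPM in FAMA-LGK. The size of the summed drop thus rests largely on TGG1 and TGG2. The marker that rose was MYB60, a transcription factor of guard cells, at 113.8 and 98.5 TPM in FAMA-LGK, against 35.6 and 25.6 TPM in WT (log2 fold change 1.78, limma adjusted p = 0.0011). FAMA, the kinase OST1 and the potassium channel KAT1 were not called. Of 8 markers of epidermis and pavement cells, 4 were higher (LTP1, PDF1, ATML1 and FIDDLEHEAD, which is KCS10), 3 were not called and DCR was below the minimum, with sums of 337.4 and 289.8 TPM in FAMA-LGK, against 97.6 and 71.5 TPM in WT. DCR was at 0 in replicate 1 of each genotype. The part of these epidermal genes in the wax gene differences was not tested, and fewer cells of a type and less RNA per cell cannot be told apart in such samples.

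Of 8 mesophyll markers, 1 was lower and 7 not called (sums of 462.4 and 519.1 TPM in FAMA-LGK, against 577.3 and 625.3 TPM in WT). The 5 phloem and xylem markers and 5 trichome markers did not reach the minimum, and their highest values were 1.79 and 0.578 TPM. ETC1 and MYB106 of the trichome list were at 0 in every library.

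No wax gene was called lower, so the profile over the 4 libraries was compared for CER10 alone, the called gene with the largest change. The tested genes nearest to it by distance between centred log2(TPM + 1) profiles were MAPKKK13 (AT1G07150, distance 0.038), AT3G13600 (0.17) and AT5G56990 (0.20), and 126 genes lay within 0.5. MAPKKK13 had 32.8 and 21.2 TPM in FAMA-LGK, against 10.1 and 6.16 TPM in WT.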

How the data were processed

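Total RNA of sorted cells was made into amplified cDNA libraries with low-input NuGEN kits. The authors deposited TPM values, which they derived from HTSeq gene counts, per the labels. The table has 33602 genes and 4 libraries. CASAVA 1.8.2, Bowtie2, HTSeq and the TAIR10 genome were used, per the submitters' processing notes. Gene lengths, strand setting and the handling of multi-mapping reads are not stated. Names came from TAIR10.1, another build name, so no coordinates are printed.

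FAMA-LGK was compared with WT by limma 3.58.1 (R 4.3.3) on log2(TPM + 1), with a trended variance prior and two-sided p-values. Benjamini-Hochberg adjustment ran over the 15143 genes that averaged 1 TPM or more, and the threshold was 0.05. This scale understates the change of low genes. With 2 libraries against 2, a permutation test cannot go below p = 0.333. The 95% intervals of fold changes come from the same fit, one gene at a time, without adjustment.

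TPM keeps no depth. Whole reads were estimated from ratios between libraries for genes above 0 in at least 3 libraries. Of these 19262 genes, 99.9% came out whole within 0.005, against 3.1% after 1 library was shuffled. The gene lengths this gave were whole within 0.05 for 96.9% of a subset of genes above 0 in every library. Part of that subset also set the length scale, and genes with few reads, such as CER1, were not in it. A common factor per gene was set by the nearest annotated transcript length, so single read numbers and totals are approximate. The other genes took the nearest whole number at the longest annotated transcript.

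The wax genes and lists were chosen with earlier results of these data known, and no list gets a test of its own. Named were the 10 wax genes, list genes that passed the test, relatives of the 10, cell type markers, and the 3 genes nearest in profile to the called gene of largest change. Other list genes are given by value or as not called. A label field called replicated series reads 1 in WT and 2 in FAMA-LGK. What it marks is not stated, and it cannot be told apart from genotype. The fit was also run on simulated counts with a fixed spread for every gene, which need not match these libraries. No result here rests on that run. Similarity between transcripts came from BLAST 2.17.0, and tables and figures from Python 3.11.15, pandas 2.3.3, numpy 2.4.6, scipy 1.17.1 and matplotlib 3.10.9.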

Additional observations from a re-analysis of the deposited data

How the results depend on the processing

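All 7 tested wax genes kept a positive log2 fold change under all 15 alternatives. Much of this was fixed in advance. Leaving out 1 library could not reverse the 6 genes without overlap, and changing the filter, variance setting or block left fold changes as they were. Without a filter on low values, limma called 511 of 23227 genes, 0 of the wax genes and 4 of the other pathway genes. Of the wax genes, 5 had an unadjusted p under 0.05 in that limma fit. The smallest limma adjusted p was 0.0665 for ABCG11, and CER10 had 0.106. More genes were then tested. Standard errors moved both ways, from 0.24 with the filter to 0.22 for ABCG11 and from 0.34 to 0.37 for CER10. The cause of the fewer calls was not tested. Without ribosomal RNA and organelle genes, 2240 of 17156 genes and 5 of 8 wax genes were called; with voom on estimated reads, an alternative chosen after seeing the data, 2086 of 15143 genes and 5 of 7 wax genes were. Leaving out 1 library gave 0 to 1685 genes called, 0 to 2 wax genes, 0 to 11 other pathway genes and 0 to 4 regulators, the 0 in each case without a WT library. Higher genes made up 51.2% of all calls as deposited, 67.1% without ribosomal RNA and organelle genes, and 36.3% without FAMA-LGK replicate 2; the cause was not tested. Without a variance trend, FATB (adjusted p = 0.0822), KCS2 (0.0812) and LTPG2 (0.0788) were not called. Library numbers are shared by both genotypes, but deviations of same-numbered libraries correlated at 0.078 across genes, and 2 pairs cannot show a pairing. With the replicate block, 2844 genes were called, among them 3 wax genes (KCR1 added, limma adjusted p = 0.0198), 14 other pathway genes and 4 regulators. In that fit the standard errors of KCS10, MYB96 and LTPG1 were all 0.257, against 0.245, 0.300 and 0.198 without the block. It thus took nearly the same spread for these genes, whatever their own libraries showed. Its larger number of calls therefore does not show a pairing or firmer changes. Depth limits CER1, CER4, MAH1 and the low relatives.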
